A study of Mus musculus with 768 samples.

Results

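Sp8, Ppp1r1b and Gabrg3 are 3 genes with few or no reads in young cochlear organoids and many in older ones. They were picked from 52636 listed genes by symbol, because earlier results of the same data had shown them higher on later culture days, so their levels by day are described here without a test. Sp8 encodes a zinc finger transcription factor, Ppp1r1b encodes DARPP-32, a regulator of protein phosphatase 1, and Gabrg3 encodes the γ3 subunit of the GABA-A receptor.

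The organoids were grown from cells of the greater epithelial ridge, the epithelium on the inner side of the hair cells of the cochlear duct, taken from P2 mice and enriched by flow cytometry. The strain was Fgfr3-CreERT2/Ai14-tdTomato/Sox2-GFP, in which a Cre recombinase under Fgfr3 control can switch on a red reporter and Sox2-expressing cells carry a green one. Organoids of Day 1, Day 3 and Day 7 all grew in the same DMEM/F-12 medium with the supplements N-2 and B-27, ampicillin, EGF, FGF2, IGF1, CHIR99021, valproic acid, 2-phospho-L-ascorbic acid and TGFβ receptor inhibitor 616452, so no group lacked any of these agents. CHIR99021 inhibits GSK3 and thereby activates WNT signalling, and valproic acid inhibits histone deacetylases. Organoids were dissociated with trypsin, and cells were picked by hand into plates for SmartSeq2, a full-length cDNA method that marks neither molecules nor strand. The labels give each cell a day and a replicate number, taken here as the culture, which makes 3 cultures on Day 1, 3 on Day 3 and 5 on Day 7. Whether these were seeded from separate animals is not stated, so the spread between cultures may be partly technical.

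After filtering, Day 1 cultures 1 to 3 held 53, 86 and 43 cells, Day 3 cultures 1 to 3 held 85, 70 and 73, and Day 7 cultures 1 to 5 held 39, 37, 72, 78 and 75. A culture summed to between 26391412 and 72483565 reads on genes. Levels are given as CPM, the reads of a gene summed over a culture and scaled to a common library total (TMM). Shares of cells with a read were counted after thinning each cell at random to 200000 reads, so that depth was the same in every cell, which left 52, 85 and 38 cells in the Day 1 cultures, 84, 66 and 72 in the Day 3 cultures and 39, 37, 69, 78 and 75 in the Day 7 cultures. The cells carried epithelial genes: the summed level of Epcam, Cdh1, Krt8 and Krt18 lay between 1566 and 4973 CPM over the 11 cultures. The 9 listed genes of the greater epithelial ridge summed to 9521 to 13893 CPM on Day 1, 3826 to 7623 on Day 3 and 2306 to 4190 on Day 7. Most of this sum was Tectb, with means of 8307.9 CPM on Day 1 and 691.7 on Day 7, and Tecta, with 2326.6 and 1545.99. Otoa, Otog and Epyc also had lower means on Day 7 than on Day 1. Fgf10 (312.3 and 290.4 CPM) and Crabp1 (50.1 and 50.2) changed little, and Otogl (30.2 and 36.2) and Calb1 (8.13 and 30.6) were higher on Day 7. The lower sum is therefore not a fall of the whole list. The summed neuron markers (6 genes) lay between 63.2 and 153.7 CPM on Day 1 and between 12.3 and 30.9 on Day 7. The 5 markers of GABA neurons summed to 28.3 to 44.3 CPM on Day 1, 5.15 to 24.9 on Day 3 and 8.61 to 31.9 on Day 7. On Day 7 Gad2 and Slc32a1 had no read, Gad1 had a mean of 8.54 CPM (35.9 on Day 1), Dlx1 4.24 (0.267) and Dlx2 7.22 (0.649), and their part in the levels below was not tested. The 6 mitosis genes used below to call cycling cells summed to 122.1 to 326.1 CPM on Day 1, 632.99 to 840.3 on Day 3 and 391.95 to 1316 on Day 7, so the days also differed in cycling markers; their part in the day levels was not tested. The deposited tables are 2, and each holds cultures of all 3 days, with Day 7 culture 5 the only Day 7 culture in the second.

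Sp8 belongs to the Sp/KLF family, which binds GC-rich boxes in promoters. It is known for its part in the apical ectodermal ridge of the limb bud, where WNT and FGF signals meet, and in the patterning and interneuron production of the forebrain. DARPP-32 is best known from striatal neurons, where protein kinase A, acting below dopamine and adenosine receptors, turns it into an inhibitor of protein phosphatase 1, while phosphorylation by Cdk5 makes it inhibit protein kinase A. GABA-A receptors are chloride channels of 5 subunits, commonly α and β subunits with a γ or δ subunit, and the γ subunit takes part in anchoring the receptor at synapses through gephyrin.

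The 3 genes lie on different chromosomes. In GRCm38, Sp8 (ENSMUSG00000048562.7) spans chr12:118846329-118852576 on the plus strand, with 4558 bp of exon. Ppp1r1b (ENSMUSG00000061718.12) spans chr11:98348404-98357796 on the plus strand, with 2928 bp of exon. Gabrg3 (ENSMUSG00000055026.13) spans chr7:56716465-57387188 on the minus strand, 670724 bp in all with 11934 bp of exon. The sequences before the starts of Sp8 and Gabrg3 are shown because both genes were read mainly on Day 7, and the letters show how different their proximal promoters are. Each is the 250 bases upstream of the RefSeq start in GRCm38.p6, read 5′ to 3′ on the gene's strand, from chr12:118846079-118846328 (plus) and chr7:57387216-57387465 (minus), with matches to the motifs searched in capitals.
Sp8: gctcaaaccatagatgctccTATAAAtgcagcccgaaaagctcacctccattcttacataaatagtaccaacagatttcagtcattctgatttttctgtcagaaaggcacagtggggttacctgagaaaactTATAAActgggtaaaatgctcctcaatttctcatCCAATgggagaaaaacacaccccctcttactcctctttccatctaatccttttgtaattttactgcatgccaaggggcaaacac
Gabrg3: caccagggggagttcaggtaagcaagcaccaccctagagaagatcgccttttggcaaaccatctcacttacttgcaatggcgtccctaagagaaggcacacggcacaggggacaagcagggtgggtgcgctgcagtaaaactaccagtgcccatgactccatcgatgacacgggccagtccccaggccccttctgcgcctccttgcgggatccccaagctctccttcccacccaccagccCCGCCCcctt

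The motifs searched on both strands were the box CCAAT, the TATA box as TATAAA, the GC box as GGGCGG, the TCF/LEF core as CTTTGA and the AP-1 site as TGANTCA. The Sp8 window held TATAAA starting at -230 and -118 and CCAAT at -84, counted from the base before the start as -1. The Gabrg3 window held CCGCCC, the GC box on the opposite strand, at -10. No printed match overlapped another. Neither window held CTTTGA or TGANTCA. Over the 32851 promoter windows of the table, cut to the same length, 12.4% held TATAAA, 33.8% CCAAT, 32.7% GGGCGG, 13.8% CTTTGA and 6.75% TGANTCA. Base composition differed as well: G and C made up 40.8% of the Sp8 window and 60.4% of that of Gabrg3, on either side of the median of 52.4%. The Sp8 start has 3 windows in the table and the one at the annotated gene start is shown; the RefSeq start of Gabrg3 lies 27 bp upstream of the gene start given above. These matches describe letters only.

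Sp8 had the widest gap between Day 3 and Day 7. Its level was 0.0290, 0 and 0.0757 CPM in Day 1 cultures 1 to 3, and 0.816, 0.489 and 0 CPM in Day 3 cultures 1 to 3. On Day 7 it was 45.4, 40.8, 18.1, 13.6 and 12.1 CPM in cultures 1 to 5. Days 1 and 3 overlapped, and Day 7 stood clear of both: the lowest Day 7 culture was 14.8 times the highest Day 3 culture. The means were 0.0349 ± 0.0382 CPM (SD, n = 3), 0.435 ± 0.411 (n = 3) and 26.01 ± 15.9 (n = 5). The 5535 reads of Day 7 followed 77 on Day 3 and 3 on Day 1. Of the 77 Day 3 reads, 52 came from culture 1, where 1 cell gave 63.5% of them, and 25 from culture 2, where 1 cell gave 88%.

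Ppp1r1b was already present at a low level on Day 3. It had 0.842, 0.0158 and 0.0379 CPM in Day 1 cultures 1 to 3, and 7.75, 3.42 and 3.30 CPM in Day 3 cultures 1 to 3. On Day 7 the 5 cultures had 22.7, 33.2, 57.6, 42.4 and 21.9 CPM. No 2 days overlapped, and the lowest Day 7 culture was 2.82 times the highest Day 3 culture. The means were 0.299 ± 0.471 CPM (SD, n = 3), 4.82 ± 2.54 (n = 3) and 35.6 ± 14.9 (n = 5), from 31, 839 and 9446 reads. The Day 1 mean rests on culture 1, which held 29 of the 31 reads, 93.1% of them in 1 cell; without that culture it was 0.0268 CPM.

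Gabrg3 had the smallest gap between Day 3 and Day 7. It had 3.17, 0.126 and 0 CPM in Day 1 cultures 1 to 3, and 9.93, 7.80 and 11.5 CPM in Day 3 cultures 1 to 3. In Day 7 cultures 1 to 5 it had 79.4, 46.98, 27.6, 42.01 and 11.7 CPM. Day 1 lay below Day 3, but culture 5 of Day 7 was level with the highest Day 3 culture, at 1.02 times its value, while the other 4 were clearly higher. The means were 1.10 ± 1.79 CPM (SD, n = 3), 9.74 ± 1.85 (n = 3) and 41.5 ± 25.2 (n = 5), with 1623 reads on Day 3 and 9242 on Day 7. Again Day 1 culture 1 held 93.2% of the Day 1 reads, and without it the Day 1 mean was 0.0632 CPM.

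**Figure D1:**
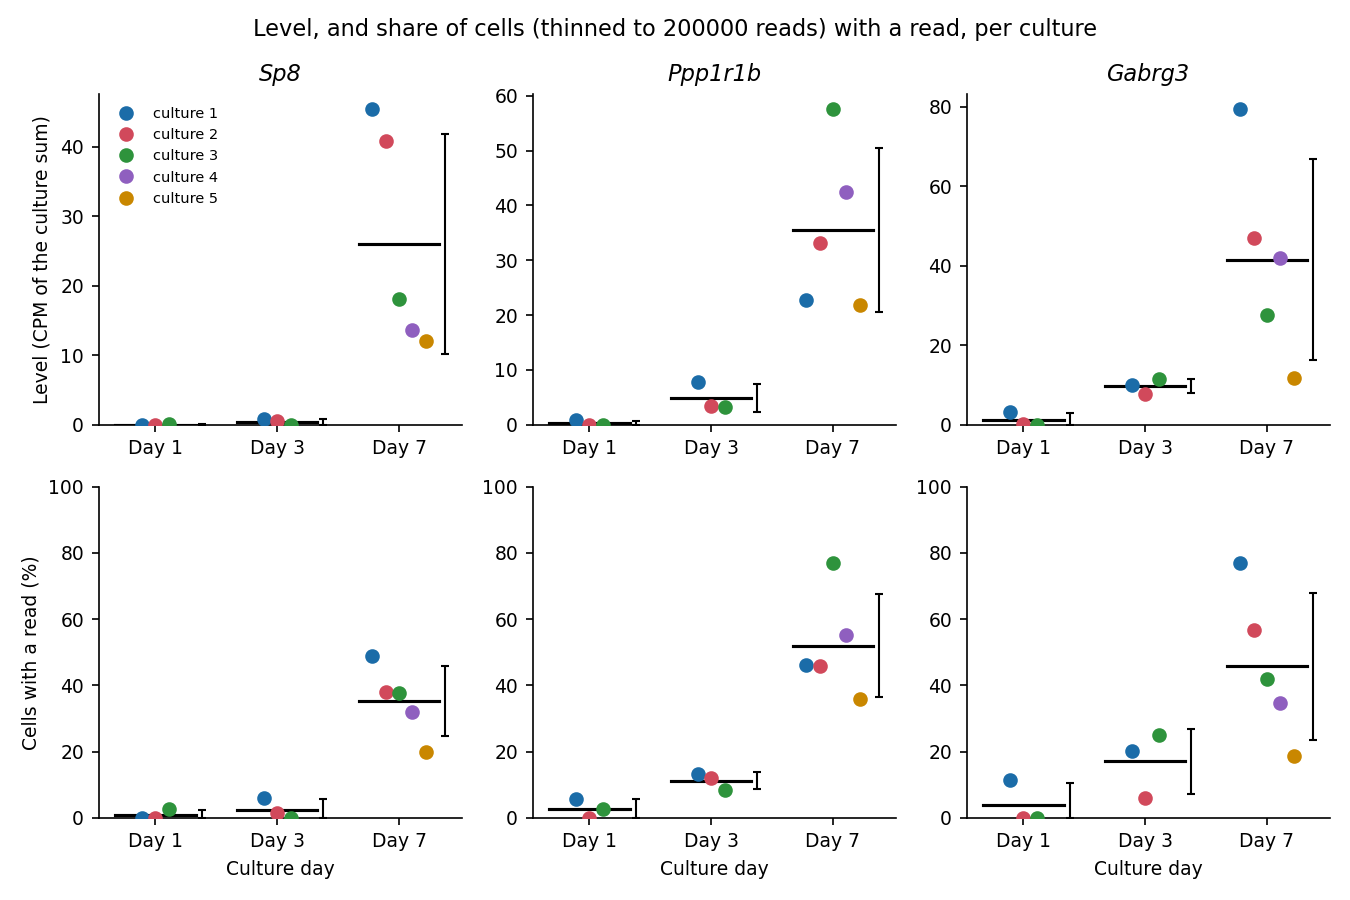
Level (top row, CPM) and percent of cells with a read after thinning (bottom row) for Sp8, Ppp1r1b and Gabrg3 by culture day. Points are cultures coloured by replicate number, which is not known to link days. Black lines are means of 3, 3 and 5 cultures and bars the SD, cut at 0. Day 7 culture 5 is the lowest Day 7 point for each gene, at 12.1, 21.9 and 11.7 CPM.

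Lack of overlap between days was not rare among the 17466 genes that passed the filter on low counts. Day 7 lay wholly above Day 1 for 8.71% of them, Day 7 wholly above Day 3 for 2.99%, and Day 3 wholly above Day 1 for 9.88%. All 3 genes met the first and second of these, and Ppp1r1b and Gabrg3 the third. Since they were picked for this pattern, nothing is read from those counts.

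The 5 Day 7 cultures did not rank the genes alike. Culture 1 was highest in Sp8 and Gabrg3 but only rank 4 in Ppp1r1b, in which culture 3 was highest. Culture 5 was lowest in all 3. This culture also had the lowest median of genes detected per cell on Day 7 (5681, against 6201 to 7155.5 in the other 4) and the highest median share of mitochondrial reads (6.76%, against 3.90 to 4.51%). It had the lowest share of cycling cells as well, defined below, at 25.3% against 43.2 to 86.96%. The part of these traits in its low levels was not tested, and they cannot be told apart from its place in the second table. Within the first table alone, Sp8 went from 0.0290 and 0.816 CPM in the single Day 1 and Day 3 cultures to a mean of 29.5 CPM in 4 Day 7 cultures. Ppp1r1b went from 0.842 and 7.75 to 38.97 CPM, and Gabrg3 from 3.17 and 9.93 to 49 CPM. Within the second table, Sp8 went from means of 0.0379 and 0.244 CPM in 2 cultures each to 12.1 CPM in the single Day 7 culture. Ppp1r1b went from 0.0268 and 3.36 to 21.9 CPM. Gabrg3 went from 0.0632 and 9.64 to 11.7 CPM, a value close to the upper of its 2 Day 3 cultures in that table, 11.5 CPM.

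In single cells the days differed both in how many cells had a read and in how many reads those cells had. Sp8 was found in 1 thinned cell on Day 1, in 6 on Day 3 and in 99 on Day 7. By culture, the Day 7 share was 48.7% (exact 95% Clopper-Pearson interval 32.4 to 65.2), 37.8% (22.5 to 55.2), 37.7% (26.3 to 50.2), 32.1% (21.9 to 43.6) and 20.0% (11.6 to 30.8). The intervals of neighbouring cultures in this order overlapped, while those of cultures 1 and 5 did not. They cover counting error over cells only, and cells of 1 culture share their organoids and preparation. All 5 shares were above those of Day 3, which were 5.95%, 1.52% and 0%, and those of Day 1, which were 0%, 0% and 2.63%. For a count of 0, here and below, the share allowed was taken as 3 divided by the number of cells, not from the interval above. This gave up to 4.17% in Day 3 culture 3, and up to 5.77% and 3.53% in Day 1 cultures 1 and 2.

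Ppp1r1b was found in 4 thinned cells on Day 1, in 25 on Day 3 and, on Day 7, in 18, 17, 53, 43 and 27 cells of cultures 1 to 5. Its Day 7 shares were 46.2% (95% interval 30.1 to 62.8), 45.9% (29.5 to 63.1), 76.8% (65.1 to 86.1), 55.1% (43.4 to 66.4) and 36% (25.2 to 47.9). Culture 3 stood highest, and its interval overlapped that of culture 4 but not those of the other 3. The shares were 13.1%, 12.1% and 8.33% in the Day 3 cultures and 5.77%, 0% (up to 3.53% allowed) and 2.63% in the Day 1 cultures, so the 3 days did not overlap.

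Gabrg3 was found in 6 thinned cells on Day 1, in 39 on Day 3 and, on Day 7, in 30, 21, 29, 27 and 14 cells of cultures 1 to 5. Its Day 7 shares were 76.9% (95% interval 60.7 to 88.9), 56.8% (39.5 to 72.9), 42.03% (30.2 to 54.5), 34.6% (24.2 to 46.2) and 18.7% (10.6 to 29.3). These spread wider than those of the other 2 genes, with the lowest inside the range of Day 3, where the cultures had 20.2%, 6.06% and 25%. On Day 1 the share was 11.5% in culture 1 and 0% in cultures 2 and 3 (up to 3.53% and 7.89% allowed). Day 3 culture 2 had its reads in few cells: 4 of 66 thinned cells had a read, and 1 cell gave 48.4% of the reads of that culture.

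Mean shares over cultures were 0.877% ± 1.52, 2.49% ± 3.09 and 35.3% ± 10.4 for Sp8 on Days 1, 3 and 7 (SD, n = 3, 3 and 5). They were 2.80% ± 2.89, 11.2% ± 2.52 and 52.01% ± 15.4 for Ppp1r1b, and 3.85% ± 6.66, 17.1% ± 9.85 and 45.8% ± 22.2 for Gabrg3. Without thinning the Day 7 means were 36.7%, 53.7% and 49.6%. Among cells with a read, the median thinned cell had 1 Sp8 read on Day 1, 2.5 on Day 3 and 10 on Day 7. For Ppp1r1b these medians were 1, 6 and 11 reads, and for Gabrg3 3.5, 8 and 16. The Day 1 medians come from 1, 4 and 6 cells. A low count of reads per cell and a low capture of transcripts cannot be told apart in a library without molecular identifiers.

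Most Day 7 cells had at least 1 of the 3 genes, and few had all of them. None was read in 73 cells (24.5%), 1 in 35.6% of cells, 2 in 85 cells (28.5%) and all 3 in 34 cells (11.4%). On Day 3, 56 cells had 1 gene, 7 had 2 and none had 3. On Day 1, 7 cells had 1 gene and 2 cells had 2.

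Co-detection was compared with the number expected if the genes were read independently within each culture, which is the product of their shares there, summed over cultures. Sp8 and Ppp1r1b were read together in 66 Day 7 cells, where 54.4 were expected, a ratio of 1.21. The observed number was above the expected one in 5 of 5 cultures (10, 8, 22, 18 and 8 cells). Ppp1r1b and Gabrg3 were read together in 76 cells, where 65.7 were expected, a ratio of 1.16, also above in 5 of 5 cultures (15, 13, 25, 17 and 6 cells). For Sp8 and Gabrg3, 45 cells were observed and 44.9 expected, a ratio of 1.00. In culture 2 this pair was read together in 11 cells where 7.95 were expected, and in culture 5 in 1 where 2.80 were expected. All 3 genes were read in 34 cells, where 24.6 were expected, a ratio of 1.38, with 0 in culture 5. No background over other genes and no value within cycling state is at hand for this ratio. Most genes had ratios a little over 1: over 10448 genes the median ratio with Sp8 was 1.05, with Ppp1r1b 1.06 and with Gabrg3 1.04. A ratio with Sp8 above that of Ppp1r1b was seen for 7.05% of them, and 9.86% were above the expected number in 5 of 5 cultures. A ratio with Ppp1r1b above that of Gabrg3 was seen for 11.6%, and 17.2% were above in 5 of 5 cultures. Where the expected number was taken within culture and cycling state, a choice made after seeing the data, the 3 pair ratios were 1.12 for Sp8 and Ppp1r1b, 1.09 for Ppp1r1b and Gabrg3 and 0.94 for Sp8 and Gabrg3. Cells of 1 culture share their organoids and preparation, and these ratios carry no test.

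Seen from each gene, 66.7% of the 99 cells with Sp8 also had Ppp1r1b, 45.5% had Gabrg3 and 22.2% had neither. Of the cells with Ppp1r1b, 41.8% had Sp8, 48.1% had Gabrg3 and 31.6% had neither. Of the cells with Gabrg3, 37.2% had Sp8, 62.8% had Ppp1r1b and 28.1% had neither. Epcam or Cdh1, the epithelial adhesion genes, were read in all Day 7 cells with a read of any of the 3 and in 99.3 to 99.5% of those without, so this measure does not set the cells apart. Among the 71 Day 7 cells with reads of at least 3 of Ogn, Ednra, Heyl and Rlbp1, which had marked a Day 7 cluster in earlier work on these data, Sp8 was read in 42.3%, Ppp1r1b in 50.7% and Gabrg3 in 49.3%. Among the other Day 7 cells the shares were 30.4%, 53.7% and 37.9%, so none of the 3 genes was restricted to those cells. These shares pool the cells of all Day 7 cultures, and the part of culture in their differences was not tested.

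**Figure D2:**
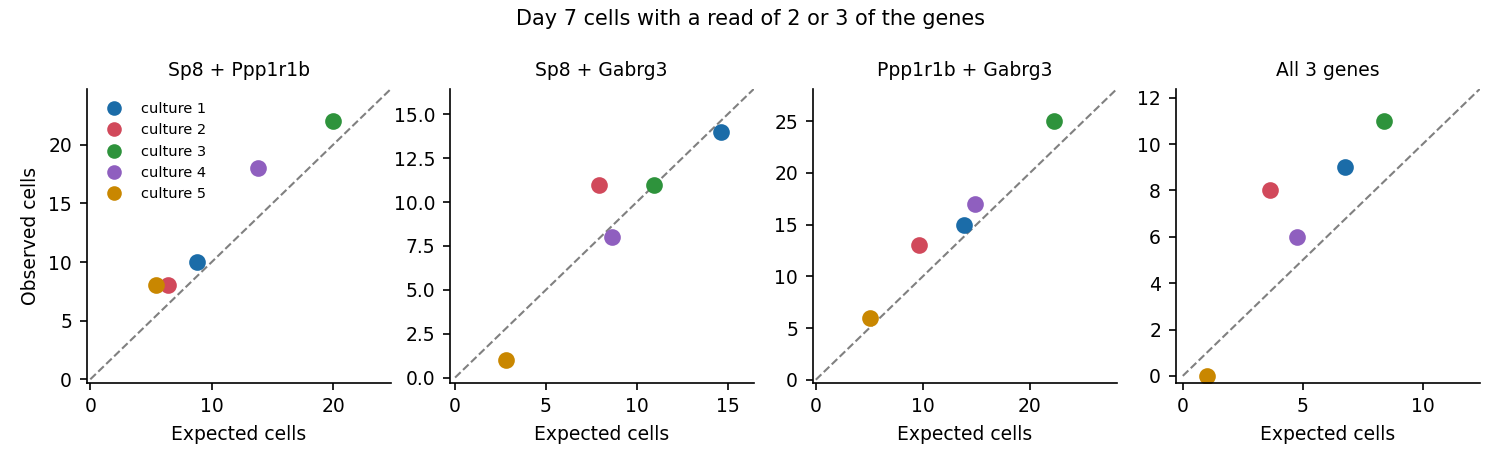
Day 7 cells with reads of each pair or of all 3 genes, with the observed number of cells (y axis) against the number expected from independent reading within the culture (x axis); points are the 5 cultures and the dashed line marks equal numbers. All points lie above the line for both pairs with Ppp1r1b, and points lie on either side for Sp8 with Gabrg3, of which culture 5 had 1 cell where 2.80 were expected.

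The companions of Sp8 were followed in 2 lists, the other Sp family genes and the patterning genes that act with Sp8 in limb ridge and forebrain (FGF, WNT, BMP and homeobox genes). Of the 8 other Sp genes, 6 could be tested between Day 7 and Day 1 and none was called at an edgeR quasi-likelihood adjusted p under 0.05, where 7.11% of all genes were called. The median log2 fold change of the 6 was 0.85, beside 0.0028 over all genes, and 4123 of all genes had an unadjusted p under 0.05. Sp5, a WNT target in many tissues, had a mean level of 1.57, 3.81 and 8.48 CPM per kb of exon on Days 1, 3 and 7, where Sp8 had 0.0077, 0.0954 and 5.71. Sp9, the closest relative of Sp8, had 1 read in all, on Day 3.

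Of the 21 patterning genes, 14 were tested, and 3 rose and 1 fell between Day 1 and Day 7 (backgrounds 3.55% higher and 3.56% lower); their median log2 fold change was 1.33. Lef1, a transcription factor of the WNT pathway, had 1.22, 0.205 and 0.416 CPM in the Day 1 cultures and 4.02, 1.90 and 6.27 in the Day 3 cultures. In the Day 7 cultures it had 20.0, 32.7, 9.10, 16.7 and 7.53 CPM, above every earlier culture, which made a log2 difference from Day 1 of 4.82 with an SE of 0.79 (adjusted p 0.00520 in edgeR, range over alternatives 2.9e-11 to 0.175). The ligand gene Wnt7a rose from 62.2 ± 8.19 CPM (SD, n = 3) to 155.6 ± 20.5 (n = 5), by 1.32 on the log2 scale with an SE of 0.18 (adjusted p 0.00230 in edgeR, range 4.0e-09 to 0.168). Bmp7, a BMP ligand, rose from 118.6 ± 28 to 342.97 ± 92.5 CPM, by 1.53 with an SE of 0.26 (adjusted p 0.00667 in edgeR, range 1.0e-06 to 0.240). The calls of these 3 were lost only where either table was analysed alone, among 20 alternatives. Emx2, a homeobox gene named here after its values were seen, fell from 0.930, 1.71 and 0.568 CPM in the Day 1 cultures to 1 read in all on Day 7 (edgeR adjusted p 0.0193, range 0.00156 to 0.30; lost under 5 alternatives, among them without Day 1 culture 1 or 2).

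Against Day 3, 2 of the 14 patterning genes rose and 1 fell, where 0.183% of all genes rose and 0.784% fell. The risers were Bmp7 (log2 fold change 1.35, edgeR adjusted p 0.0344, lost under 7 of 20 alternatives) and Wnt7a (0.83, edgeR adjusted p 0.0474, lost under 16). Fgf8, the ligand that Sp8 is known to sustain in the limb ridge, went from 1035 reads on Day 3, in 8 cells and nearly all in cultures 2 and 3, to 2 reads on Day 7 (edgeR adjusted p 0.0426, lost under 13). Its mean levels were 0.379, 6.72 and 0.00589 CPM on Days 1, 3 and 7. The 7 hair cell markers considered also each had their highest mean level on Day 3. They summed to 28.9 to 62.9 CPM on Day 1, 45.03 to 192.3 on Day 3 and 21.5 to 40.5 on Day 7. Whether the Fgf8 reads came from cells with hair cell markers, rather than from a change that goes with Sp8, was not tested. Between Day 3 and Day 1 none of the 14 patterning genes was called, where 0.0115% of all genes were.

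Within Day 7, Lef1 was read in 49 of 99 cells with Sp8 (49.5%) and in 44 cells without it (22.1%). Shares within cultures would give 32.9 such cells, so the ratio was 1.49, and the observed number was above the expected one in 5 of 5 cultures. A higher ratio with Sp8 was seen for 0.201% of 10448 genes, and within culture and cycling state the ratio for Lef1 was 1.41. The partners followed here were chosen with earlier results known, and the ratio carries no test. The same ratio was 1.124 for Sp5 (above in 3 of 5 cultures), 1.01 for Axin2, a feedback inhibitor of WNT signalling, 0.99 for Wnt7a and 1.00 for Bmp7.

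Ppp1r1b was set beside the genes of its pathway, of which 21 of 27 were tested. Of these, 1 rose and 1 fell between Day 1 and Day 7, a share near the backgrounds of 3.55% higher and 3.56% lower, and their median log2 fold change was -0.11 beside 0.0028 over all genes. The gene that fell was Ppp1r1a, which encodes inhibitor 1, the other cyclic AMP-controlled inhibitor of protein phosphatase 1. It had 19.1, 41.5 and 33.2 CPM in the Day 1 cultures, 12.5, 22.4 and 22.5 in the Day 3 cultures and 4.71, 4.69, 8.60, 6.70 and 10.6 in the Day 7 cultures. All Day 7 values lay below all Day 3 values, and the difference from Day 1 was -2.14 on the log2 scale with an SE of 0.36 (adjusted p 0.00586 in edgeR, range 1.1e-06 to 0.281; lost only with either table alone). Ppp1cc, the γ catalytic subunit of protein phosphatase 1, rose from 158.9 ± 21.2 to 255.3 ± 43.5 CPM, by 0.68 on the log2 scale with an SE of 0.18 (adjusted p 0.0368 in edgeR, range 0.0125 to 0.566), and that call was lost under 14 of 20 alternatives. None of the 21 was called between Day 7 and Day 3, where 0.968% of all genes were.

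Per kb of exon, the order of both inhibitor genes turned over. Ppp1r1a stood at 23.9 CPM per kb on Day 1 and 14.6 on Day 3, against 0.102 and 1.65 for Ppp1r1b, and was the higher of both in each culture of those days. On Day 7 it stood at 5.41 against 12.1 for Ppp1r1b, which was the higher in 4 of 5 cultures. In culture 5 the levels were 8.14 for Ppp1r1a and 7.47 for Ppp1r1b. Single cells did not split into users of one or the other: Ppp1r1a was read in 30.4% of the Day 7 cells with Ppp1r1b and in 28.6% of those without.

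**Figure D3:**
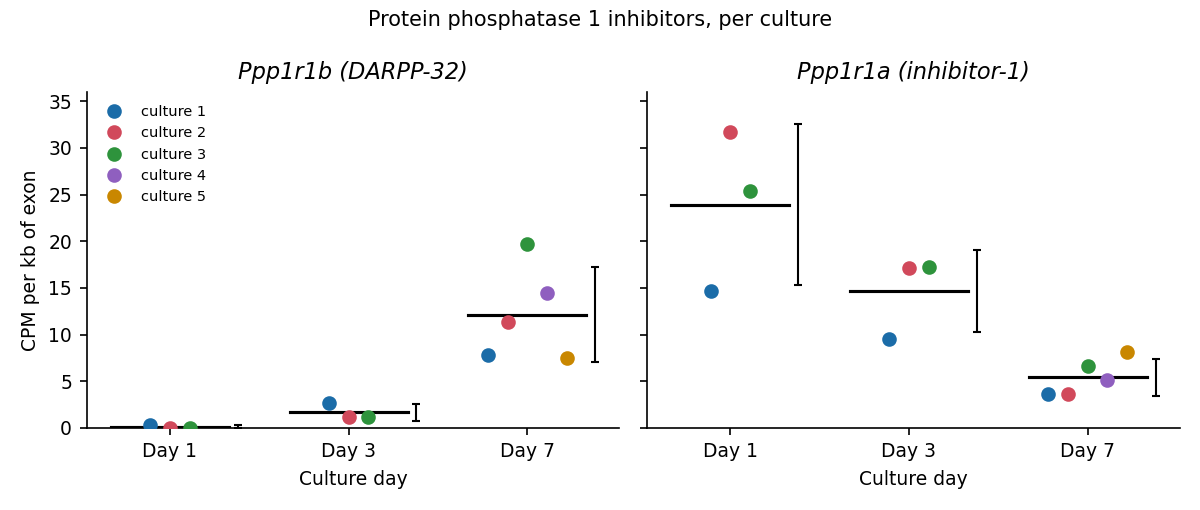
Levels of Ppp1r1a and Ppp1r1b per kb of exon (y axis, CPM per kb) by culture day; points are cultures, black lines means and bars the SD, cut at 0. Ppp1r1a went from 23.9 to 5.41 and Ppp1r1b from 0.102 to 12.1 CPM per kb between Day 1 and Day 7.

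The targets and kinases of DARPP-32 were broadly read, its upstream receptors hardly. All Day 7 cells with Ppp1r1b had a read of at least 1 of the 3 catalytic subunits of protein phosphatase 1, as had 98.6% of the cells without. A catalytic subunit of protein kinase A was read in 96.2% of cells with Ppp1r1b and 89.3% of those without, and Cdk5 in 65.2% and 58.6%. Any of the 5 dopamine receptors was read in 4 cells with Ppp1r1b and 3 without, and the adenosine receptor gene Adora2a in 0 and 2.

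Gabrg3 had the highest Day 7 level per length among the GABA-A receptor genes considered. Of the 17 other subunit genes considered, 11 had no read on Day 7, 10 had none on Day 3 and 7 had none on Day 1. Per kb of exon, Gabrg3 had 3.48 ± 2.12 CPM on Day 7 (SD, n = 5), with 6.65, 3.94, 2.31, 3.52 and 0.977 in cultures 1 to 5. Gabre, the ε subunit, had a mean of 0.317. Gabrr2, a ρ subunit, had 0.0446 and Gabra4, an α subunit, 0.0416. On Day 1 Gabre stood at 1.10 CPM per kb, Gabra3, an α subunit, at 0.810 and Gabrq, the θ subunit, at 0.669, while Gabrg3 had 0.0920.

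Of these 17 genes, 6 could be tested, with a median log2 fold change of -2.40 between Day 1 and Day 7, beside 0.0028 over all genes, and edgeR called none of them, where 7.11% of all genes were called. Between Day 3 and Day 7 their median was -1.07 beside 0.01 over all genes, and none was called, where 0.968% of all genes were. With so few genes, counts of 0 are near both backgrounds.

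In single Day 7 cells, an α subunit was read in 3 cells with Gabrg3, Gabrb1 or Gabrb2, which encode β subunits, in 1, and an α subunit together with either of these in 0, which allows a share of up to 2.48%. No such cell had a read of another γ subunit. A δ, ε, π or θ subunit was read in 14.05% of cells with Gabrg3 and 14.1% of those without, and gephyrin, the anchoring protein, in 39.7% and 38.98%. Gad1 or Gad2, which make GABA, were read in 9.92% and 15.8%. Of the 11 genes considered for GABA synthesis, transport, breakdown, chloride transport and receptor anchoring, 7 were tested and none was called between Day 7 and Day 1, near the background of 7.11%. Gad1 went from 35.9 ± 9.52 CPM on Day 1 to 8.54 ± 7.53 on Day 7 (edgeR adjusted p 0.0633, range 0.00585 to 0.318).

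**Figure D4:**
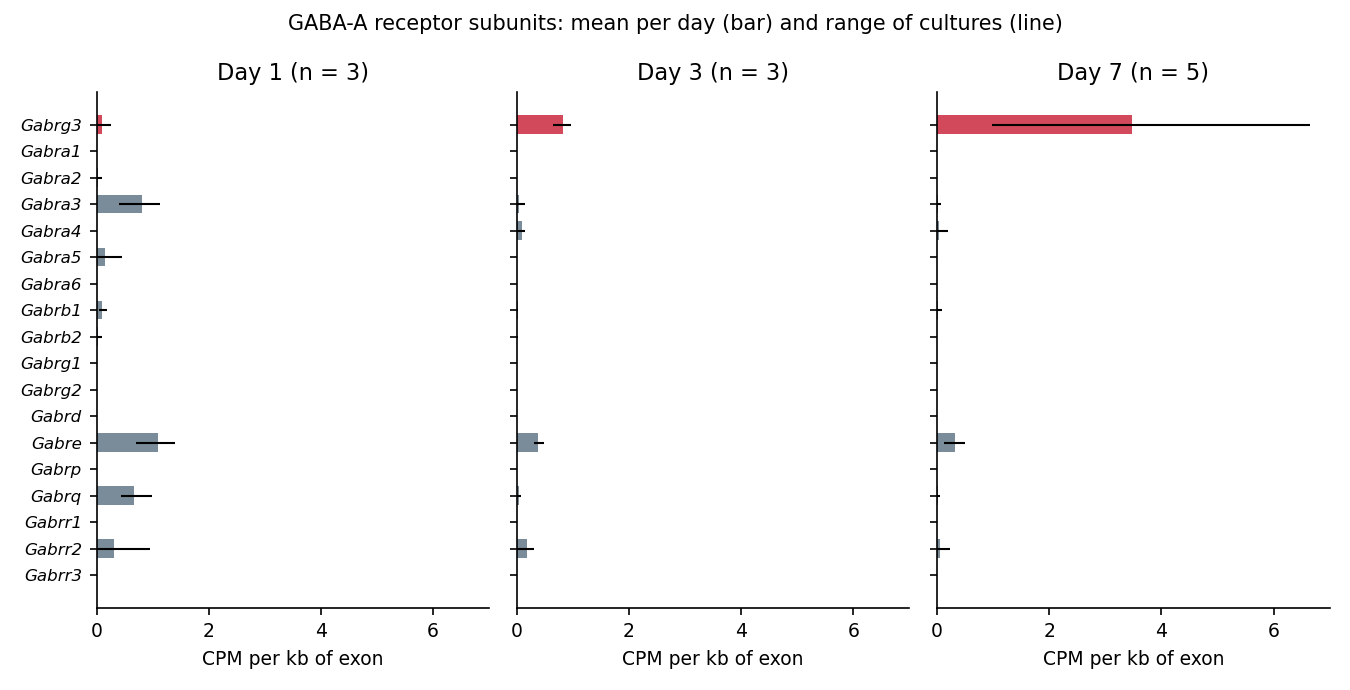
Level of the GABA-A receptor subunit genes considered, per kb of exon (x axis, CPM per kb) on Days 1, 3 and 7; bars are means over the 3, 3 and 5 cultures and lines run from the lowest to the highest culture. Gabrg3 reaches a mean of 3.48 on Day 7, and Gabre 0.317.

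Neighbouring genes were read to see whether whole regions moved with the 3 genes. Of the nearest protein-coding genes considered, up to 3 on each side of each gene, 11 could be tested between Day 7 and Day 1. Of these, 1 rose, against the background of 3.55% higher, and the other 10 had log2 fold changes between -1.86 and 0.73 (edgeR adjusted p 0.110 to 0.960). The riser was Cdca7l, 967623 bp to the left of Sp8, a relative of the MYC target gene Cdca7. It went from 38.1 ± 2.48 CPM on Day 1 (SD, n = 3) through 66 ± 16.2 on Day 3 to 96.9 ± 18.5 on Day 7 (n = 5), by 1.35 on the log2 scale with an SE of 0.21 (adjusted p 0.00429 in edgeR, range 5.9e-07 to 0.216; lost only with either table alone). No neighbour of Ppp1r1b was called. Sp4 and Dnah11, which lie nearer to Sp8 than Cdca7l on the same side, were not called either. Abcb5, 15248 bp to the right of Sp8, had no read. Neurod2, beside Ppp1r1b, and Gabra5, beside Gabrg3, were among the neighbours that could not be tested.

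Genes that overlap the 3 could share reads with them. The antisense gene 1700003D09Rik covers part of Ppp1r1b and had 1, 0 and 18 reads by day, all 18 in 1 cell. Without strand marks its reads and those of Ppp1r1b cannot be told apart where exons meet. Gabrg3 contains 6 other annotated genes, all with predicted-gene symbols. One on the same strand, Gm17984 at chr7:56804605-56805463, named after its values were seen, had 0 CPM in the 3 Day 1 cultures and 0.847, 0.782 and 1.44 in the Day 3 cultures. On Day 7 it had 3.81, 5.08, 2.85, 1.65 and 0.320 CPM, with no overlap with Day 1 (edgeR adjusted p 0.00737, range 2.0e-07 to 0.335). The call of Gm17984 was lost with either table alone. Its reads and those of Gabrg3 may be split by the authors' counting, so both are uncertain in this stretch. Gabrg3 was picked for its levels by day, so the test of Gm17984 gives no separate support for that pattern.

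The cell cycle offered a comparison that did not enter the choice of the genes. This comparison too was chosen with earlier results of these data known. A Day 7 cell was called cycling if reads of 3 or more of the mitosis genes Ccnb2, Tpx2, Birc5, Mki67, Cdk1 and Top2a were present, which held for 57.7% of the thinned cells. Cycling cells had a read of each of the 3 genes more often than other cells of the same culture, in 5 of 5 cultures. The shares of cycling cells with Sp8 were 57.1%, 50%, 40%, 39.3% and 42.1% in cultures 1 to 5, against 38.9%, 28.6%, 22.2%, 13.6% and 12.5% of other cells. For Ppp1r1b they were 57.1%, 75%, 80%, 62.5% and 68.4% against 33.3%, 23.8%, 55.6%, 36.4% and 25%. For Gabrg3 they were 85.7%, 68.8%, 46.7%, 42.9% and 26.3% against 66.7%, 47.6%, 11.1%, 13.6% and 16.1%. For Sp8 and Ppp1r1b the lowest share of cycling cells lay just above the highest share of other cells, and for Gabrg3 the states overlapped across cultures.

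The mean difference was 22.5 percentage points for Sp8 (SD 5.05), 33.8 for Ppp1r1b (SD 12.7) and 23.04 for Gabrg3 (SD 9.72). The exact two-sided sign-flip permutation test over 5 cultures gave p = 0.0625 for each, also 0.0625 after adjustment over the 3, which is the smallest that 5 pairs allow. Among 11248 genes, 24.2% had a higher share in cycling cells in 5 of 5 cultures, and the median difference was 6.47 points. A larger difference than that of Ppp1r1b was seen for 2.51% of them, than that of Gabrg3 for 6.98% and than that of Sp8 for 7.34%. Cycling cells also had more genes with a read at equal depth in 5 of 5 cultures, with culture medians of 5632 to 6720 against 5028.5 to 5887. The part of this in the differences was not tested.

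In levels, none of the 3 genes was called between cycling and other cells by edgeR with culture as a block, where 2.99% of 12901 genes were (2.12% higher and 0.876% lower in cycling cells). Ppp1r1b differed by 1.01 on the log2 scale with an SE of 0.26 (adjusted p 0.0885 in edgeR, range over alternatives 0.0158 to 0.247) and was higher in cycling cells in 5 of 5 cultures; the DESeq2 Wald test called it, at an adjusted p of 0.0158. Sp8 had 0.85 (SE 0.48, edgeR adjusted p 0.445, range 0.109 to 0.866) and Gabrg3 0.56 (SE 0.25, edgeR adjusted p 0.316, range 0.150 to 0.686), each higher in 4 of 5 cultures. No gene of the 5 lists was called by edgeR in this comparison either. Under some alternatives Gad1 (log2 fold change -3.28), Ppp1ca (0.39) and Ppp1cc (0.37) passed the threshold, so Ppp1r1b was not alone in this.

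**Figure D5:**
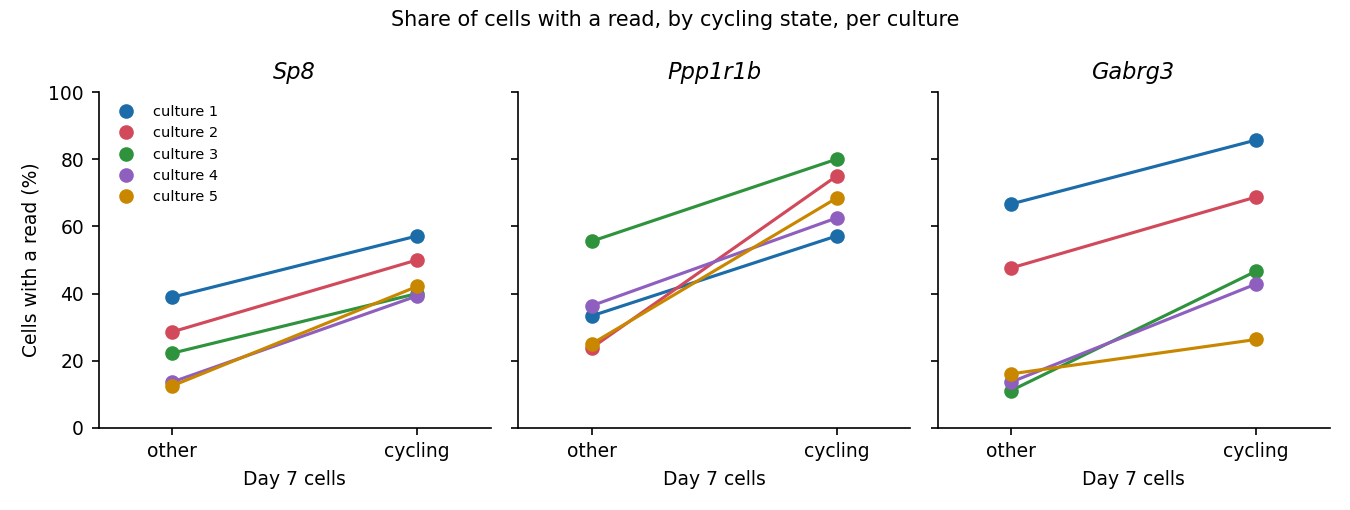
Share of Day 7 cells with a read of each gene (y axis, percent of cells thinned to equal depth) in cycling and in other cells. Lines join both shares of a culture, and all 5 lines go up towards the cycling cells for each gene, by a mean of 22.5, 33.8 and 23.04 points for Sp8, Ppp1r1b and Gabrg3.

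Genes with the most similar pattern over Day 7 cells were ranked by the mean, over 5 cultures, of the Spearman correlation within a culture (all thinned Day 7 cells, 10450 genes with a read in at least 10% of cells). The coefficients were low, and the genes compared share cells and sparse counts. For Sp8 the top 5 were Setdb2 (mean rho 0.29), Rfx3 (0.29), Cnnm4 (0.26), Eno1 (0.25) and Anp32e (0.25), and the median over all genes was 0.03. For Ppp1r1b they were Sec16a (0.35), Mcm3 (0.35), Dus1l (0.34), Mcm5 (0.33) and Exosc5 (0.33), with a median of 0.04. For Gabrg3 they were Uhrf1 (0.34), Stmn1 (0.33), Ptma (0.33), Hmgb2 (0.32) and Tubb5 (0.32), with a median of 0.03. Mcm3 and Mcm5 encode subunits of the replicative helicase, Uhrf1 a factor that maintains DNA methylation at replication, and Rfx3 a transcription factor of cilia genes. Among themselves the 3 genes had mean rho values of 0.14 for Sp8 and Ppp1r1b, 0.04 for Sp8 and Gabrg3 and 0.09 for Ppp1r1b and Gabrg3, while the 95th percentile of all genes lay at 0.14, 0.18 and 0.16 for Sp8, Ppp1r1b and Gabrg3.

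Over the 11 cultures, which differ first of all by day, Pearson coefficients of log2 CPM were high for many genes. The closest to Sp8 were Id3 (0.95), an inhibitor of basic helix-loop-helix factors, Chtop (0.95), Tmem30b (0.94), Nrarp (0.94), a Notch feedback gene, and Fubp3 (0.93). The closest to Ppp1r1b were Prom2 (0.97), Fbln1 (0.96), which encodes the matrix protein fibulin 1, Hnrnpa1 (0.95), Lbr (0.95) and Alg8 (0.95). The closest to Gabrg3 were Skp2 (0.95), a ubiquitin ligase subunit of the cell cycle, Ppp1r1b itself (0.94), Hnrnph1 (0.94), Tcf7 (0.94), a partner of β-catenin, and Alg8 (0.94). Among the 3 genes the coefficients were 0.94 for Ppp1r1b and Gabrg3, 0.85 for Sp8 and Ppp1r1b and 0.74 for Sp8 and Gabrg3. Since all 3 were picked for levels that are higher on later days, these coefficients restate the choice.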

How the data were processed

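Expected counts, which are estimated reads without normalisation, were deposited by the authors in 2 tables of 384 cells each. Per the submitters' processing notes, STAR 2.5.3a and RSEM 1.3.0 were used with mm10 (GRCm38); the annotation release is not given in the sources used here. Identifiers of the 3 genes matched GENCODE M21 with their version. Of the values above 0, 10.6% were not whole; those of the 3 genes all were. Counts were rounded. Of 768 cells, 711 passed minimums of 50000 reads and 1500 detected genes and a maximum of 20% mitochondrial reads, and 695 of these (175, 222 and 298 by day) could be thinned. No 2 cells had identical counts. Retained cells were summed per culture, since cells of a culture are not replicates. Reads of spike-ins and transgenes (rows that name no mouse gene) stayed out.

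Day contrasts over all 17466 genes left by filterByExpr were fitted with edgeR 4.0.16 in R 4.3.3 (TMM, quasi-likelihood, day as the only term, 11 cultures, Benjamini-Hochberg adjusted p under 0.05), checked on simulated counts first. The cycling fit used sums per culture and state with culture as a block. Alternatives were DESeq2 1.42.0, limma 3.58.1 on log2 mean CPM with 1 added, other size factors, filters and depths, and leaving out each culture. Shares, co-detection and likeness were computed in Python 3.11.15 on cells thinned to 200000 reads (seed 7). Likeness over cultures used log2 CPM with a prior count of 2. CPM per kb divides by the union of annotated exons. The 3 genes, the lists and the tests were chosen with earlier results of these data known, and no list is independent support for a pattern those results showed.

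Named genes are the 3 genes, up to 3 called genes of each list per contrast, the 3 nearest protein-coding genes on each side and the 5 genes of greatest likeness per measure, without predicted genes. Other genes given values were chosen after these were seen (among them Sp5, Sp9, Emx2, Axin2, Gabre, Gabra3, Gabra4, Gabrq, Gabrr2, Gad1, Adora2a and Gm17984). Promoter windows came from the RefSeq table for GRCm38.p6, in which Sp8 and Gabrg3 matched; it has no entry used here for Ppp1r1b. Some items of the lists and neighbours are not reported here and were left out of their counts.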

Additional observations from a re-analysis of the deposited data

Results flagged for a closer look

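Dixon's criterion at 95%, which chance meets in about 1 of 20 groups, was applied to the 5 Day 7 cultures for each listed gene, neighbour or overlapping gene with a Day 7 read, 76 considered in all, and 21 of them (27.6%) had 1 culture far above the other 4. The criterion is met by any gene read in 1 culture alone, which held for 13 of the 21.

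The other 8 included genes with many reads. Itgb8, an integrin gene to the right of Sp8, had 13.8 CPM in Day 7 culture 1, close to its Day 1 level of 14.4 ± 2.63 (SD, n = 3). In cultures 2 to 5 it had 0.903 to 2.36 CPM. Culture 1 also had the highest Sp8, at 45.4 CPM. Culture 2, next in Sp8 at 40.8 CPM, had 1.25 CPM of Itgb8. Prkar2b, a regulatory subunit of protein kinase A, had 37.7 CPM in culture 1 and 16.2 to 20.8 in the others. The FGF receptor gene Fgfr2 had 21.2 CPM in culture 4, and all of its 1441 Day 7 reads came from 10 cells. The phosphodiesterase gene Pde10a had 3.05 CPM in culture 4. Among receptor subunits, Gabrb1 had 1.27 CPM in culture 1, Gabra3 0.307 in culture 3, and Gabra4 and Gabrq 1.23 and 0.320 in culture 5, each from 5 cells or fewer.

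Of the 13 genes read in 1 culture alone, Adcy5 had 4.14 CPM in culture 5 and Drd5 0.0134 there. In culture 4, Sp7 had 0.986 CPM, Gm17987 0.662, Gm18642 0.177, and Fgf8, Dlx5 and Tcap 0.0294 each. In culture 1, Adora2a had 0.960 CPM and Pax6 0.279. In culture 3, Gabrr2 had 0.470 CPM, 1700003D09Rik 0.325 and Emx2 0.0181. Each of these came from 1 or 2 cells.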

How the results depend on the processing

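The mean levels and shares of Sp8, Ppp1r1b and Gabrg3 kept the order Day 1, Day 3, Day 7 under other size factors, all cells, other depths and the mean of CPM over cells, with 3 values that moved by more than their spread. Sp8 on Day 1 was 0.0792 CPM as a mean over cells (0.0349 in the summed counts), Gabrg3 on Day 3 was 13.3 CPM with all cells kept (9.74), and Ppp1r1b on Day 3 was read in 7.44% of cells when at least 5 reads were asked for (11.2%). The order was not kept throughout when single cultures were left out. For Sp8 the mean Day 3 share then fell to 0.758% at the lowest, below the Day 1 mean of 0.877%. Ppp1r1b between cycling and other cells had a log2 fold change of 0.98 in the DESeq2 Wald test and passed its threshold there. Counts over all genes moved most. Day 7 against Day 1 called 7.11% of 17466 genes, 13.3% with DESeq2, 2.5% to 7.9% when single cultures were left out (lowest without Day 1 culture 1; over 1.5 times lower also without Day 1 culture 2 or 3 or Day 7 culture 3 or 4), 0.0859% in the first table alone and 0.716% in the second alone, both chosen after seeing the data. Day 7 against Day 3 called 0.968%, and 3.69% with DESeq2, 0.584% with the table as a term, 0.2% to 0.996% without single cultures (lowest without Day 3 culture 2; over 1.5 times lower also without culture 2 or 3 of Day 1, 1 or 3 of Day 3 and 1 or 2 of Day 7), and 0% and 0.115% by table. Day 3 against Day 1 called 0.0115%, and 1.48% with DESeq2, 0.0744% without the filter on low counts, 0.395% with limma, 0% to 0.0286% without single cultures, and 0% and 0.103% by table. With edgeR, 1617 genes had an unadjusted p under 0.05 there. Cycling against other cells called 2.99% of 12901 genes, and 11.3% with DESeq2, 1.95% with 2 markers as the limit, and 0.845% to 1.47% without any 1 of the 5 cultures (lowest without culture 5). Days 1 and 3 in the first table and Day 7 in the second had a single culture, assumed to vary like the others.

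The labels do not say whether equal replicate numbers pair cultures across days. Over 9 pairs of the same number, deviations from the day means correlated between -0.0101 and 0.0615. Pairs of unlike number gave -0.0852 to 0.0717, so these values do not settle whether cultures are paired. With the replicate block the calls were 5.9%, 0.55% and 0.126% for Day 7 with Day 1, Day 7 with Day 3 and Day 3 with Day 1. Neighbours that were not called were refitted 530 times, with 32 changes of sign and 3 gained calls. The number of cultures, 3 on Days 1 and 3, limits the precision of each spread, and reads without molecular identifiers limit what low counts per cell can show.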
